A study of Mus musculus with 6 samples.

Results

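The fibroblast growth factor (FGF) ligand genes Fgf7, Fgf8, Fgf9, Fgf10 and Fgf20 and the receptor genes Fgfr1, Fgfr2, Fgfr3, Fgfr4 and Fgfrl1 were followed in embryonic mouse kidneys with and without the receptor Fz4. These 10 genes, of 18193 genes named on the array, were read by 22 of its 45037 probe sets without controls, namely all probe sets that the platform annotation gives to 1 of the 10 genes alone. The kidneys were taken whole at E13.5 and measured on Affymetrix MOE430.2 arrays, 3 arrays of Fz4-/- kidneys and 3 of Fz4+/+ kidneys. Each of 3 litters gave 1 array of each genotype, so that every Fz4-/- sample had a Fz4+/+ littermate sample. Fz4 is the protein of Fzd4, a cell surface receptor of the Wnt and Norrin pathways. The allele, the strain and the number of embryos behind a sample are not given in the sources used here, so p-values measure the spread between these samples alone.

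FGF ligands bind receptor tyrosine kinases together with heparan sulfate, and the bound receptors signal through Frs2 and the Ras-MAPK relay to genes such as Etv4, Etv5, Spry1 and Dusp6. In the developing kidney Fgf9 and Fgf20 keep nephron progenitors in place, and Fgf8 is needed when these cells form the first nephron epithelium. Fgf7 and Fgf10 are made by mesenchymal and stromal cells and act on the epithelial form of Fgfr2 in the branching ureteric bud. Fgfr1 and Fgfr2 act together in the metanephric mesenchyme, whereas Fgfrl1 lacks the tyrosine kinase domain and its loss stops kidney formation.

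Levels are the log2 values made by the RMA method, and a level of 1 probe set cannot be set against that of another. A filter on low signal left for testing the probe sets whose 6-array mean reached the 40th percentile, a level of 5.89. Of the 22 probe sets 14 passed, 4 of 7 for ligands and 10 of 15 for receptors, and they stood for 8 of the 10 genes. Fgf7 and Fgf10 had no probe set above the filter. As a guide to background, the 44 probe sets of olfactory receptor genes had a median mean level of 3.67 and a 95th percentile of 5.55. Means of 17 FGF probe sets lay above 5.55, and the 5 below it were 1 each of Fgf7, Fgfr2 and Fgfr3 and both probe sets of Fgfr4 whose names end in _x_at.

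The arrays had median levels of 6.62 to 6.74, and both arrays of litter 3 had the widest distributions. Their lower quartiles were 4.66 and 4.675 against 4.75 to 4.92 in the others, and their upper quartiles 9.05 and 9.06 against 8.84 to 8.98. Fzd4 checked the genotype labels: on probe set 1419301_at its level was 4.05 to 5.05 in the Fz4-/- and 7.53 to 8.48 in the Fz4+/+ arrays. Probe set 1434756_at read 4.37, 3.58 and 6.22 in the Fz4-/- arrays of litters 1 to 3 against 10.31 to 11.21, so its Fz4-/- level was highest in litter 3. The third probe set, 1449416_at, lay at 2.93 to 3.17 on all arrays and did not check the labels. Even this gene, on 1419301_at with limma's unadjusted p of 6e-05, did not pass the threshold after adjustment over all probe sets. Kidney markers were present on every array, among them the nephron progenitor gene Six2 (7.76 to 8.09), the ureteric tip gene Ret (9.32 to 9.59) and the stromal gene Foxd1 (10.73 to 11.39), while the ureteric gene Hoxb7 lay at 4.38 to 4.73, under the filter. Genes of other tissues were also read: the mean of 9 striated muscle genes ranged from 6.13 to 7.61 in Fz4-/- and from 7.56 to 8.32 in Fz4+/+ samples, and that of 7 liver genes from 6.31 to 7.73 and from 6.58 to 8.23. The mean of 5 of 10 neuronal, chromaffin and neural crest genes ranged from 6.24 to 6.93 and from 6.64 to 7.90. Of these 5, Chga, Chgb, Isl1 and Elavl4 differed by -0.80, -1.86, -1.19 and -0.21 log2, and Tubb3 went the other way, by 0.57. Th, Dbh and Sox10 of that list lay under the filter and were lower in Fz4-/- without overlap. The part of these tissues in the FGF values was not tested. In such bulk samples, fewer cells of a type and less RNA per cell cannot be told apart.

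To show what lies upstream of members whose 2 arrays of litter 3 stood apart from the other 4 on a tested probe set, the 250 bases before the start site are given for Fgf9 and Fgfr2, which were lowest in litter 3, and for Fgfr4 and Fgfrl1, of which at least 1 probe set was highest there. They come from RefSeq promoter windows of build GRCm38.p6, which held 7 of the 10 genes. Fgf8, Fgf20 and Fgfr1 had no window, so Fgf20 and Fgfr1, which also stood apart in litter 3, are not shown. Capitals mark the GC box GGGCGG on either strand.

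Fgf9, chr14:58072436-58072685, plus strand: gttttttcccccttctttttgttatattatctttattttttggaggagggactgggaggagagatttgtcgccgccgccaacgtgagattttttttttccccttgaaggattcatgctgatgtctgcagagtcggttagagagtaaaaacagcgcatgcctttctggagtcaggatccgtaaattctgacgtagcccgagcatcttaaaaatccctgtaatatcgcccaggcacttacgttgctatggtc

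Fgfr2, chr7:130266809-130267058, minus strand: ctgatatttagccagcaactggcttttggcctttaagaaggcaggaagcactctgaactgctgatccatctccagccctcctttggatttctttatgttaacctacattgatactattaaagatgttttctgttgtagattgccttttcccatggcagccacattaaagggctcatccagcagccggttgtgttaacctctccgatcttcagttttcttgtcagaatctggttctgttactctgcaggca

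Fgfr4, chr13:55152568-55152817, plus strand: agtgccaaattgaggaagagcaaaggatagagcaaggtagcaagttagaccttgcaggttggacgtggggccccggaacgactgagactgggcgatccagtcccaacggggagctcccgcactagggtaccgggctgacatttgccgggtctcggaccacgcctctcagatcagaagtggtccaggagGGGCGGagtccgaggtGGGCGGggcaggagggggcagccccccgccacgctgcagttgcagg

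Fgfrl1, chr5:108693979-108694228, plus strand: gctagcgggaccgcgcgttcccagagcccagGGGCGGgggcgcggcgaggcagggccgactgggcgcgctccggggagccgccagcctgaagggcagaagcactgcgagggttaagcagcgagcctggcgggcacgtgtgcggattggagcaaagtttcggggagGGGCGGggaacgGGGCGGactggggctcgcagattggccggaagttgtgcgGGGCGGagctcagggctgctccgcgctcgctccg

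The GC box occurred 0 times in the windows of Fgf9 and Fgfr2, 2 times in that of Fgfr4 and 4 times in that of Fgfrl1. In members not apart in litter 3 on a tested probe set, it occurred 3 and 2 times in the 2 windows of Fgfr3, 1 time in Fgf10 and 0 times in Fgf7. Of 32851 windows of the same length, 32.7% held at least 1. The dinucleotide CG occurred 11 times in the Fgf9 window, 2 times in Fgfr2, 15 times in Fgfr4 and 30 times in Fgfrl1, against a median of 6.0. The Fgfr3 windows held it 19 and 24 times, that of Fgf10 8 times and that of Fgf7 6 times. The TCF and LEF core sequences CTTTGA and CTTTGT, through which Wnt signals reach genes, and the TATA sequence TATAAA were searched on both strands too. None of them was found in the 4 windows printed above, while 13.8%, 16.5% and 12.4% of all windows held one. The first 2 share the letters CTTTG, and among the other windows of members CTTTGT occurred 1 time, in Fgf7. These matches describe letters in a window of fixed length and say nothing of binding.

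The first comparison asked whether FGF ligands and receptors differ between kidneys with and without Fz4. No FGF probe set differed beyond the spread between samples. With limma's adjusted p, 0 of the 14 tested FGF probe sets passed 0.05, as did 0 of all 27022 (0%). At an unadjusted p under 0.05 the counts were 0 of 14 and 239 of 27022 (0.884%). The genotypes overlapped on every FGF probe set, whereas on 3.64% of all tested probe sets they did not. The smallest exact permutation p of the 22 FGF probe sets was 0.4, where 3 against 3 can reach 0.1.

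The FGF differences were small as well as uncertain. The 14 tested probe sets ran from -0.25 to 0.25 log2, Fz4-/- minus Fz4+/+, with 9 above 0 and 5 below. Of all 27022 tested probe sets 16636 lay above 0 and 10386 below. The median of the 14 was 0.0225, near the median of 0.0334 over all tested probe sets, and their median absolute difference was 0.0722, against 0.0874. The standard error was 0.132 to 0.549. For 9 of the 14 the 95% interval of the difference lay within 0.5 log2 of 0 on either side, and for 12 within 1. The widest interval reached -1.43, for Fgf9.

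**Figure D1:**
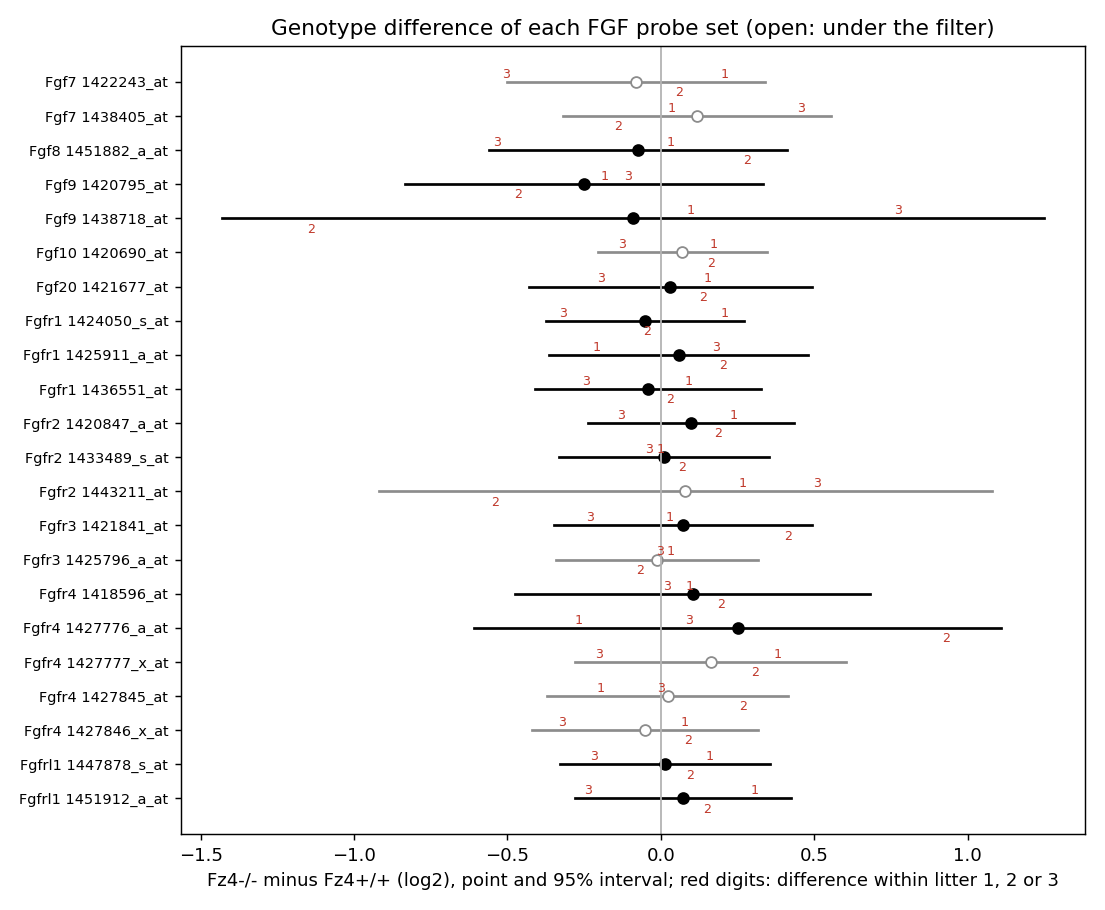
Difference Fz4-/- minus Fz4+/+ in log2 for the 22 FGF probe sets (points, with 95% intervals from limma) and within litters 1, 2 and 3 (red digits); open points lie under the filter on low signal. Every interval includes 0, and the widest are those of Fgf9 1438718_at and, under the filter, Fgfr2 1443211_at.

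Among the ligands, Fgf9 had the largest difference and the largest spread. Probe set 1420795_at gave, in the order of litters 1 to 3 kept from here on, 7.65, 7.45 and 7.10 in Fz4-/- kidneys and 7.83, 7.91 and 7.21 in Fz4+/+ kidneys. The Fz4-/- sample was the lower one in every litter, by -0.18, -0.46 and -0.11, though the genotypes overlapped. It was the only one of the 14 tested probe sets to be lower in all 3 litters, or 7.14%, against 7.28% of all tested probe sets. The difference was -0.25 ± 0.24 (SE), with an interval of -0.84 to 0.33 and limma's unadjusted p of 0.335. With the litter in the fit the SE was 0.11 and limma's unadjusted p 0.0852, the smallest of the 14 in that fit. Its adjusted p there was 0.999986.

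The second Fgf9 probe set, 1438718_at, did not follow this order. It gave 8.20, 7.48 and 7.35 in Fz4-/- against 8.10, 8.62 and 6.57 in Fz4+/+ kidneys. Within litters the difference was 0.10, -1.14 and 0.77, so the Fz4+/+ samples were both the highest and the lowest of all 6. The 2 probe sets thus both read Fgf9 lower in the Fz4-/- sample of litter 2 and disagreed in litters 1 and 3. Over the genotypes the second one differed by -0.09 ± 0.55 (SE).

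Fgf20, the close relative of Fgf9 that also serves nephron progenitors, read 6.50, 6.46 and 5.91 in Fz4-/- and 6.35, 6.33 and 6.11 in Fz4+/+ samples. It was higher in Fz4-/- in litters 1 and 2 and lower in litter 3, with a difference of 0.03 ± 0.19 (SE). Fgf8, the ligand of the forming nephron, read 6.69, 6.48 and 6.27 against 6.66, 6.195 and 6.80. The difference within litter 3, -0.53, was opposite to that of 0.28 in litter 2, and the genotypes differed by -0.07 ± 0.20 (SE). Both genes stood near the filter of 5.89, with means of 6.51 for Fgf8 and 6.28 for Fgf20.

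The mesenchymal ligands of the ureteric epithelium lay below the filter. Fgf10 read 5.85, 5.88 and 5.66 in Fz4-/- and 5.67, 5.72 and 5.79 in Fz4+/+ samples, the narrowest range of all 22 probe sets at 0.217. It was higher in Fz4-/- in litters 1 and 2 and lower in litter 3. The brighter Fgf7 probe set, 1438405_at, read 5.73, 5.47 and 6.11 against 5.70, 5.61 and 5.65, with the 1 high value in the Fz4-/- sample of litter 3. In a fit of all 45037 probe sets, Fgf10 differed by 0.07 ± 0.11 (SE) and this Fgf7 probe set by 0.12 ± 0.18, with limma's unadjusted p of 0.558 and 0.537. The dimmer Fgf7 probe set, at 4.30 to 4.80, lay below the 95th percentile of the olfactory receptor genes on every array.

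Fgfr1 and Fgfr2, the receptors of the mesenchyme and the ureteric bud, were read well above background. On the brightest Fgfr1 probe set, 1424050_s_at, levels were 11.01, 10.94 and 10.87 in Fz4-/- and 10.80, 10.98 and 11.19 in Fz4+/+ kidneys, so both the lowest and the highest array were Fz4+/+. The genotypes differed by -0.05 ± 0.13 (SE), with an interval of -0.37 to 0.27. The other Fgfr1 probe sets differed by -0.04 and 0.06. The brightest Fgfr2 probe set, 1433489_s_at, read 11.86, 12.03 and 11.66 against 11.86, 11.96 and 11.69. Littermates were close to each other here, with differences of -0.00022, 0.07 and -0.04, and the genotypes differed by 0.01 ± 0.14 (SE). The second tested probe set of Fgfr2, 1420847_a_at, differed by 0.10 ± 0.14. Which splice form of Fgfr2 each probe set reads was not analysed here.

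Fgfr3 read 7.74, 7.91 and 7.86 in Fz4-/- and 7.71, 7.49 and 8.09 in Fz4+/+ samples on its tested probe set, a difference of 0.07 ± 0.17 (SE). The Fz4+/+ samples of litters 2 and 3 were its lowest and highest. Fgfrl1, the receptor without a kinase domain, read 9.59, 9.56 and 9.63 against 9.43, 9.47 and 9.84 on probe set 1447878_s_at and differed by 0.01 ± 0.14. Both of its probe sets were higher in Fz4-/- in litters 1 and 2, by 0.10 to 0.30, and lower in litter 3, by -0.22 and -0.24.

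Fgfr4 was the only gene with a tested probe set higher in Fz4-/- in all 3 litters, or 7.14% of the 14, against 14.2% of all tested probe sets. That probe set, 1418596_at, gave 7.21, 7.20 and 7.71 against 7.11, 7.001 and 7.69. The differences of 0.09, 0.20 and 0.02 within litters were smaller than the step of 0.57 from litters 1 and 2 to litter 3. The genotypes differed by 0.10 ± 0.24 (SE). With the litter in the fit the SE was 0.09 and limma's unadjusted p 0.32. The second tested probe set, 1427776_a_at, read 5.86, 6.69 and 6.84 against 6.13, 5.76 and 6.75. Its difference of 0.25 ± 0.35 rested on litter 2, at 0.93, while litters 1 and 3 gave -0.27 and 0.09. Fgfr4 is known from muscle precursors and liver as well as kidney. In litter 2 the muscle mean was 6.13 in the Fz4-/- and 8.32 in the Fz4+/+ sample, and the liver mean 6.31 and 6.58. Both means were lower in the Fz4-/- sample, where 1427776_a_at read higher. The part of these tissues in the Fgfr4 values was not tested.

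**Figure D2:**
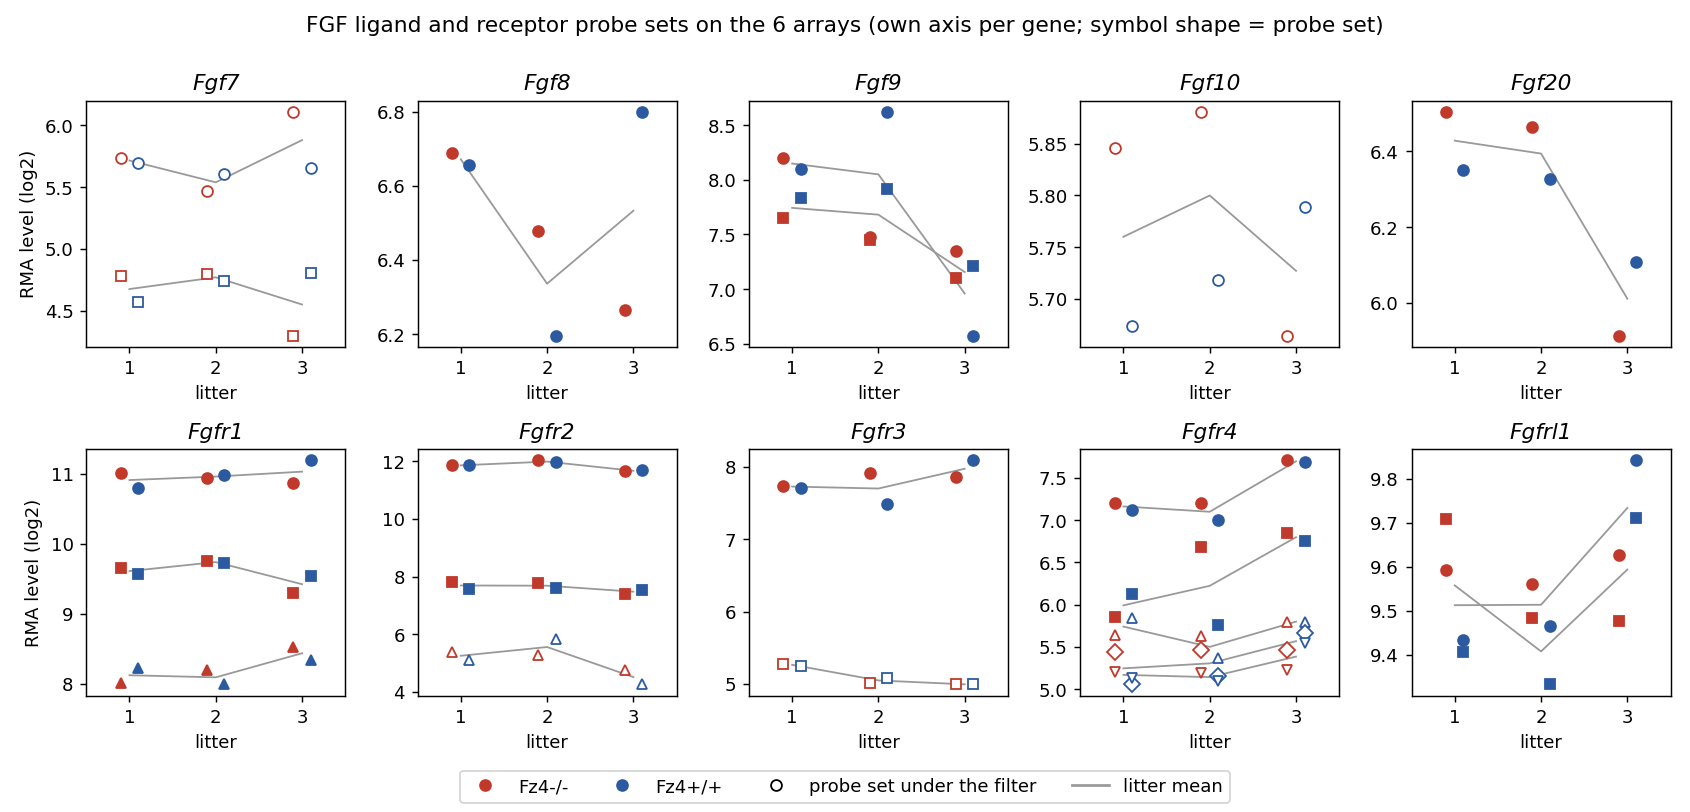
RMA levels (log2) of all 22 FGF probe sets on the 6 arrays by litter, with an axis of its own for each gene; red is Fz4-/-, blue Fz4+/+, symbol shape the probe set, open symbols lie under the filter and grey lines join litter means. Red and blue points overlap for every probe set, and Fgf9 and Fgf20 sit lowest in litter 3, where Fgfr4 1418596_at sits highest.

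The direction within litters changed between them. Of the 14 tested FGF probe sets 10 were higher in the Fz4-/- sample of litter 1, 11 in that of litter 2 and 4 in that of litter 3. Their median difference was 0.0914, 0.144 and -0.163 in litters 1 to 3. Over all tested probe sets 48.5%, 68.2% and 49.9% were higher in Fz4-/-, with medians of -0.00663, 0.116 and -0.000254. Probe sets of 1 gene are not independent of each other, and each litter gave 1 pair of arrays, so these counts are a description of 3 pairs.

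Whether FGF genes varied between litters, with the genotype held in the fit, was asked next. Litter 3 gave lower Fgf9, Fgf20 and Fgfr2 and higher Fgfr4 levels, in both genotypes, than litters 1 and 2. The wider distributions of the litter 3 arrays stand beside this, and their part in it was not tested. Quantile normalization makes the distributions equal. After it, 2 of 14 FGF probe sets had limma's unadjusted p of the litter under 0.05, as did 5520 of 27022 in all (20.4%). They were Fgfr4 1418596_at (p of 0.0199) and Fgf9 1420795_at (0.0167), which were also under 0.05 before it. By limma's F test of the litter, 0 of 14 FGF probe sets passed an adjusted p of 0.05, as did 0 of all 27022 (0%). At an unadjusted p under 0.05 there were 2 of 14 (14.3%), 1 each of Fgfr4 and Fgf9, against 6225 of 27022 (23.0%).

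Both arrays of litter 3 lay below the other 4 on 6 of the 14 FGF probe sets, or 42.9%, against 15.5% of all tested probe sets. They lay above the other 4 on 4, or 28.6%, against 36.9%. Litter 3 was singled out after its values were seen, so these counts are a description. The low ones were both probe sets of Fgf9, both tested probe sets of Fgfr2, Fgf20 and Fgfr1 1436551_at. The high ones were both tested probe sets of Fgfr4, Fgfr1 1425911_a_at and Fgfrl1 1447878_s_at. Fgfr1 therefore appeared in both groups, through different probe sets.

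For Fgf9 the mean of litter 3 was 0.56 log2 below that of litters 1 and 2 on probe set 1420795_at, with litter means of 7.74, 7.68 and 7.16 (limma's unadjusted p of 0.0204, adjusted p of 0.174). The wider probe set gave litter means of 8.15, 8.05 and 6.96 and an unadjusted p of 0.110. Fgf20 had means of 6.43, 6.39 and 6.01, with an unadjusted p of 0.0662. Both ligands of the nephron progenitors were thus lowest in litter 3, short of the threshold. Fgfr4 1418596_at had means of 7.16, 7.10 and 7.70, 0.57 higher in litter 3, with an unadjusted p of 0.00895 and an adjusted p of 0.152. The bright Fgfr2 probe set had means of 11.86, 11.99 and 11.67 and an unadjusted p of 0.0885.

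Marker levels of the Fz4-/- and the Fz4+/+ sample of litter 3 are given beside this. The mean of the 9 measured nephron progenitor genes was 9.63 and 9.83 in litter 3 and 9.52 to 9.72 in the others. The 8 stromal genes averaged 10.99 and 10.89 against 10.54 to 10.84, and the 8 macrophage genes 7.52 and 7.96 against 7.27 to 7.43. The 9 measured of 10 ureteric bud genes averaged 10.04 and 10.02 against 9.64 to 10 in the other samples. The macrophage gene Csf1r was 0.96 log2 higher in litter 3, the largest step of its list. Adgre1, Mrc1 and Ptprc were also higher there, whereas Cd53, Lyz2 and Cx3cr1 differed by -0.22, -0.165 and -0.03. F13a1 was higher in the Fz4+/+ sample of litter 3 alone, at 8.475, and read 7.32 in the Fz4-/- sample against 6.97 to 7.62 in the others. Star, the 1 of 7 adrenal and gonadal genes above the filter, read 7.46 and 7.31 against 6.51 to 6.78. Under the filter, Amh stood above the other 4 arrays in litter 3 and Nr5a1 below, by 0.19 and -0.28. Hsd3b1 differed by -0.70 through 1 high array, the Fz4+/+ sample of litter 2 at 6.68, and did not stand apart in litter 3. The part of these cells in the FGF values was not tested. The 9 early nephron genes, of which Fgf8 is one, averaged 9.78 and 9.71 against 9.53 to 9.97.

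Among the 22 measured feedback and response genes of the pathway, both arrays of litter 3 lay below the other 4 for 6, against 11.4% of all tested genes, and above them for 3, against 41.8%. For the FGF members, read by the brightest tested probe set of each gene, the counts were 3 and 2 of 8. The 6 low genes were the feedback inhibitors Spry2, Spred1 and Dusp6, the transcription factors Etv5 and Egr1, and Lhx1, which depends on Fgf8 in the forming nephron. Fgf8 itself did not stand apart in litter 3, at 0.03 above litters 1 and 2. The 3 high genes were the feedback inhibitors Spred3 and Il17rd, by 0.39 and 0.21, and Wnt11, by 0.29. Dusp6, the phosphatase that acts on ERK, had litter means of 11.13, 11.23 and 10.83, with limma's unadjusted p of 0.0377 and adjusted p of 0.20. Spry3 had the smallest unadjusted p of the litter in the list, 0.00952 (adjusted p of 0.152), and went the other way. Its litter means were 5.59, 6.03 and 6.455, though the Fz4-/- sample of litter 2 lay above the Fz4+/+ sample of litter 3. These 2 genes of the 22 had limma's unadjusted p of the litter under 0.05, as did 2477 of all 12535 genes. None of the 22 passed the adjusted threshold between litters.

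**Figure D3:**
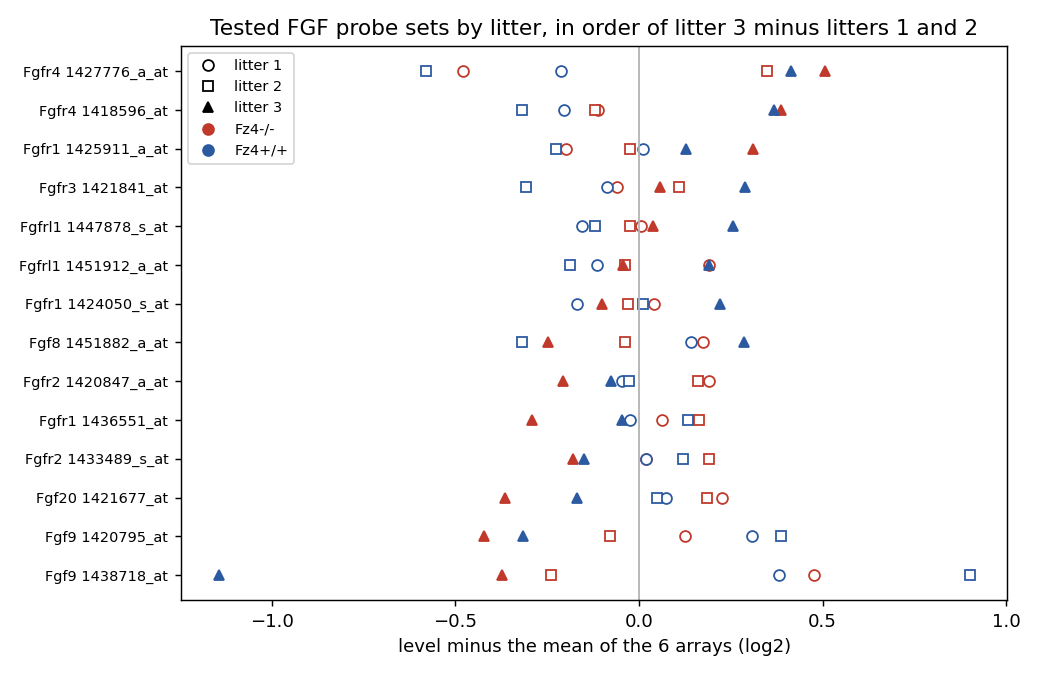
Level of each tested FGF probe set minus its mean over the 6 arrays (log2), ordered by the difference of litter 3 from litters 1 and 2; filled triangles are litter 3, open circles litter 1 and open squares litter 2, with Fz4-/- in red and Fz4+/+ in blue. The triangles lie left of all other symbols for Fgf9, Fgf20, Fgfr2 and Fgfr1 1436551_at, and right of them for Fgfr4, Fgfr1 1425911_a_at and Fgfrl1 1447878_s_at.

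Fgf9 1438718_at had the largest range of the brightest probe sets, 2.05 log2. Of 12534 other genes, the 5 with the most similar pattern over the 6 arrays were Vstm2a, Fancd2os, Tmem86b, Fndc7 and 1700008O03Rik, at a Pearson r of 0.993 to 0.996 and a Spearman rho of 0.943 to 1.0. With the Fz4+/+ arrays of litters 2 and 3 left out, the 2 farthest from the median of Fgf9, r was 0.979 to 0.995 over 4 arrays. The points share litters, and these genes were chosen for their r, so no p is given.

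The other genes of the pathway were read in the same fit, each by its brightest tested probe set. No gene of 4 lists passed limma's adjusted p of 0.05, and 94 of 12535 genes (0.750%) had an unadjusted p under 0.05. The median difference of all genes was 0.0339, with 7962 of the 12535 above 0 and 4573 below. The genotypes did not overlap for 3.81% of all genes. When the fit also held the litter, limma's unadjusted p fell under 0.05 for Fgf18 (0.0104), Fgfbp1 (0.00549) and Spry3 (0.0275) and no longer did for Hs3st3a1 (0.0527). Each of these had an adjusted p of 0.999986, and in that fit 841 probe sets, or 3.11%, had an unadjusted p under 0.05.

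Of 17 other FGF ligands 7 passed the filter, 6 above 0 and 1 below, with a median of 0.207. Fgf15, an endocrine ligand, read 6.22, 6.06 and 6.34 in Fz4-/- and 5.95, 5.52 and 5.91 in Fz4+/+ samples, without overlap, and near the filter. It differed by 0.42 ± 0.16 (SE), with limma's unadjusted p of 0.0380 and adjusted p of 0.999988. Fgf18 read 7.69, 8.04 and 8.34 against 7.25, 7.73 and 7.74 and was higher in every litter, by 0.44, 0.30 and 0.60, at an unadjusted p of 0.0885 without the litter in the fit. Fgf11, which stays inside the cell, differed by 0.34 ± 0.52 and Fgf1 by 0.05 ± 0.09.

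Of 22 adaptor and relay genes 16 were measured, with 11 above 0, 5 below and a median of 0.0111. None had an unadjusted p under 0.05. The adaptor Frs3 had the smallest, 0.0895, with a difference of -0.34 ± 0.17 (SE). Araf, Plcg1 and Crk differed by 0.10, 0.09 and -0.09.

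Of 23 feedback and response genes 22 were measured, with 9 above 0, 13 below and a median of -0.0325. limma gave the smallest unadjusted p to Cited1, 0.0149, and to the ETS factor Etv4, 0.0354, both at an adjusted p of 0.999988. Etv4, which Ret as well as FGF receptors induce, read 8.56, 8.62 and 8.65 in Fz4-/- and 8.84, 8.84 and 9.13 in Fz4+/+ samples. All 3 Fz4-/- samples lay below all 3 others, by -0.28, -0.22 and -0.48 within litters. Cited1, a marker of uncommitted progenitors, differed by -0.33 ± 0.10 (SE), also without overlap. The feedback inhibitors Spry4 and Spry3 differed by -0.16 and 0.40, Dusp6 by -0.05 ± 0.16, Spry1 by -0.05 and Etv5 by -0.16.

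Of 31 coreceptor and heparan sulfate genes 24 passed the filter, with 19 above 0, 5 below and a median of 0.0704. Hs3st3a1, a heparan sulfate sulfotransferase, read 6.58, 6.94 and 6.79 in Fz4-/- and 7.45, 7.06 and 7.16 in Fz4+/+ samples. It was lower in every litter without overlap, by -0.45 ± 0.16 (SE), with limma's unadjusted p of 0.0261 and adjusted p of 0.999988. Fgfbp1, a carrier that frees FGF ligands from the matrix, was higher in Fz4-/- in every litter, by 0.41, 0.44 and 0.59, though the genotypes overlapped and the unadjusted p without the litter was 0.126. Sdc2 and Hs6st2 differed by 0.16 and 0.11.

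**Figure D4:**
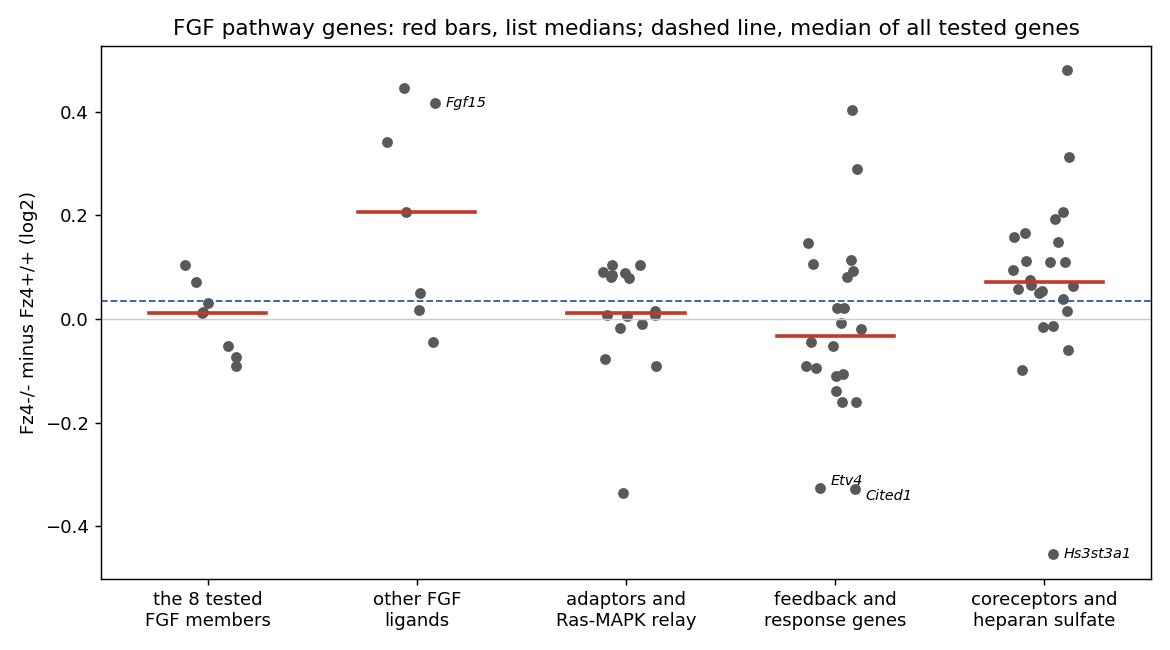
Difference Fz4-/- minus Fz4+/+ (log2) of each tested gene in the FGF members and 4 pathway lists (grey points), with list medians in red and the median of all tested genes, 0.0339, dashed in blue; genes with an unadjusted p under 0.05 in the fit without litter are named. The 8 tested FGF members lie between -0.09 and 0.10, and Fgf15, Etv4, Cited1 and Hs3st3a1 are the named genes.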

How the data were processed

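Whole-kidney RNA of 6 samples was read on 1 array each. The deposited values are log2 expression per probe set, made by the authors with RMA, per the submitters' processing notes, with no version given. RMA compresses differences near background, and the quartiles of the deposited values still differed between arrays. Groups and litters came from the labels. The platform annotation named the probe sets, and 22 of 22 member probe sets matched RefSeq symbols (GRCm38.p6) by gene number. Controls (64) were left out, and 27022 probe sets at or above the 40th percentile of the mean, 5.89, were tested. The genotype was the sole term of a limma fit (version 3.58.1, R 4.3.3; moderated two-sided test, p-values adjusted by Benjamini and Hochberg over all tested probe sets, threshold 0.05), and litters were compared by limma's F test with genotype in the fit. Member probe sets under the filter took their values from a fit of all 45037. The fits were run on simulated data with independent noise and no litter effect outside chosen probe sets. That run does not show how the fits perform on these arrays, which differ between litters. Members, lists and the rule for named genes (all members, up to 4 genes a list by unadjusted p, and the 5 genes most like the widest-ranging member) were chosen with earlier results of these data known. Dusp6, Spry1, Spry2, Spred1, Spred3, Il17rd, Etv5, Egr1, Lhx1, Wnt11, Fgf12, Fgf13, Fgf14, Klb and the marker genes were named outside that rule after their values were seen. Lists were not tested as sets.

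Same-numbered samples share a litter per the labels, so they are paired. Their deviations from the genotype means correlated by 0.577, 0.178 and 0.809 in litters 1 to 3, while the Fz4-/- sample of litter 1 correlated by 0.609 with the Fz4+/+ sample of litter 2, above its own littermate. Alternatives covered the filter, normalization, variance prior, array weights, the litter as a block, probe set choice and left-out samples. The number of arrays limits the precision.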

Additional observations from a re-analysis of the deposited data

How the results depend on the processing

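With the litter as a replicate block limma called 0 of 14 FGF probe sets and 0 of 27022 in all, so pairing changed no call, while the probe sets at an unadjusted p under 0.05 went from 239 to 841, with 0 of FGF genes in both. The count of FGF probe sets past the threshold between genotypes was 0 under all alternatives. With array weights it was 2 of all probe sets, and 2 FGF probe sets had an unadjusted p under 0.05, Fgf9 1420795_at (-0.363, p of 0.0181) and Fgfr4 1427776_a_at (0.531, p of 0.0326), where 22.5% of all did. Leaving out 1 sample gave 0 to 1 such FGF probe sets, the 1 being Fgf9 1420795_at without the Fz4+/+ sample of litter 3 (-0.472, p of 0.0491).

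Between litters, the trend and robust prior called 2990 probe sets, 1 of them of an FGF gene (Fgfr2 1433489_s_at, limma's adjusted p of 0.0285). Litter alone in the fit called 3, and leaving out 1 sample called 0 to 1506, with 1506 and 326 without the Fz4-/- and Fz4+/+ samples of litter 2 and 0 FGF probe sets in each. Leaving out litter 3 was an alternative added once its values had been seen, and it gave 0 calls and 0 FGF probe sets at an unadjusted p under 0.05, against 2 with it.

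Each member was followed here by its brightest probe set, 1438718_at for Fgf9, or in 1 alternative by the mean of its probe sets. Of 160 such differences under alternatives 25 changed sign, and their smallest adjusted p was 0.237. Outside these 160, Fgf9 1420795_at and Fgfr4 1427776_a_at had limma's adjusted p of 0.166 and 0.194 with array weights. Among the members so followed, Fgf10 alone kept its sign in all. Leaving out 1 sample gave -0.0519 to 0.268 for Fgf7, -0.251 to 0.0508 for Fgf8, -0.686 to 0.337 for Fgf9, 0.0281 to 0.137 for Fgf10, -0.074 to 0.222 for Fgf20, -0.146 to 0.0484 for Fgfr1, -0.0792 to 0.108 for Fgfr2, -0.0651 to 0.233 for Fgfr3, -0.0639 to 0.313 for Fgfr4 and -0.0602 to 0.144 for Fgfrl1. Array weights gave -0.154 for Fgf7 and 0.0866 for Fgfr1, and moved Fgf9 from -0.0904 to -0.564 (limma's unadjusted p of 0.0588) and Fgfr2 from 0.0106 to 0.132. Without litter 3, Fgf7, Fgf8 and Fgfr1 read -0.0522, 0.156 and 0.0812, and Fgf9 -0.522. Quantile normalization gave -0.0201 for Fgfrl1 and moved the median of all probe sets from 0.0334 to 0.0102. The cause of these changes was not tested.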

Other observations

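Among the other FGF ligands above the filter, Fgf14 and Fgf11 differed more between litter 3 and the others than any member did, while Fgf1, Fgf12, Fgf13, Fgf15 and Fgf18 did not. Fgf14, which stays inside the cell and binds sodium channels, had litter means of 7.71, 7.69 and 5.50 on its brightest probe set, a difference of -2.20 log2 between litter 3 and the others. Its relative Fgf11 had means of 6.39, 6.52 and 7.72, 1.27 higher in litter 3. Klb, the coreceptor of endocrine FGFs, was 0.73 higher there. limma's unadjusted p of the litter was 0.0216, 0.00623 and 0.0105, and none passed the adjusted threshold, at an adjusted p of 0.174, 0.147 and 0.153.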
